A study of Mus musculus with 6 samples.

Results

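The 10 genes described here are those of the CSF1 axis and of resident kidney macrophages: the ligand genes Csf1 and Il34, their receptor gene Csf1r, the complement C1q chain genes C1qa, C1qb and C1qc, and the macrophage genes Adgre1, Ms4a7, Aif1 and Cybb. They were taken by symbol from the deposited table of FPKM (fragments scaled to transcript length and to the total of the library), and all 10 were found among its 17933 genes. The 3 stone samples came from kidneys of wild-type male C57BL/6 mice, 6 to 8 weeks old and weighing 24 to 26 g, that received glyoxylic acid at 120 mg/kg into the peritoneum daily for 12 days. The 3 control samples came from mice of the same kind that received saline in equal volume. The body turns glyoxylic acid into oxalate, and the injections are used to make calcium oxalate crystals form in the kidney. Whether the 3 samples of a group came from 3 separate animals is not in the labels, so p-values here reflect the spread among samples, which may be technical.

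Macrophages of the mononuclear phagocyte lineage depend on the receptor tyrosine kinase CSF1R for survival and proliferation. Its ligands are colony-stimulating factor 1 and interleukin 34, which bind the same receptor although their sequences are unrelated. In the mouse kidney both ligands can be made by tubule epithelium, and resident macrophages there are known for F4/80, the protein of Adgre1, and for abundant C1q, the molecule that starts the classical complement pathway.

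Promoter sequences from RefSeq (GRCm38.p6), from 250 bases before to 50 bases after the start site, were matched to 6 of the 10 members. Csf1r was left out of this matching, and no windows were found for Il34, C1qa and Adgre1. The windows of Csf1, C1qb, C1qc and Cybb are shown because these genes differed most between the groups among the matched members, and each is written 5′ to 3′ along its gene with motif matches in capitals.
Csf1 at chr3:107760420-107760719, minus strand: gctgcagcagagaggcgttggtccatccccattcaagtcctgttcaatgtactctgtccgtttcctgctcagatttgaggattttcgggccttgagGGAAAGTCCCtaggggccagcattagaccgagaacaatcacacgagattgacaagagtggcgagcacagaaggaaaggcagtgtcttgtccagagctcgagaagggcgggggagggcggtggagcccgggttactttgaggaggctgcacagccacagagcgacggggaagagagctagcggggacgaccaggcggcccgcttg
C1qb at chr4:136886151-136886450, minus strand: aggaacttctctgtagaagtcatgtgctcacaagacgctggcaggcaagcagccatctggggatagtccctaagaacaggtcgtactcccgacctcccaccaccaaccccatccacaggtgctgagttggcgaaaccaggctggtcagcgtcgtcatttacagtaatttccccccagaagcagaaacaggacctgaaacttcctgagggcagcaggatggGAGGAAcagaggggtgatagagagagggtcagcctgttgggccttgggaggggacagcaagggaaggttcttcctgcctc
C1qc at chr4:136892865-136893164, minus strand: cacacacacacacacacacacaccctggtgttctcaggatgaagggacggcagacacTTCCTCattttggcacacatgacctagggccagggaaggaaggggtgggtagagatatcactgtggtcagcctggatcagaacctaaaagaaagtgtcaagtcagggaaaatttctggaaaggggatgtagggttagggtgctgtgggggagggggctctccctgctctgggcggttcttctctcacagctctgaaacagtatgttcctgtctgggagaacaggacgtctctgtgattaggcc
Cybb at chrX:9469275-9469574, minus strand: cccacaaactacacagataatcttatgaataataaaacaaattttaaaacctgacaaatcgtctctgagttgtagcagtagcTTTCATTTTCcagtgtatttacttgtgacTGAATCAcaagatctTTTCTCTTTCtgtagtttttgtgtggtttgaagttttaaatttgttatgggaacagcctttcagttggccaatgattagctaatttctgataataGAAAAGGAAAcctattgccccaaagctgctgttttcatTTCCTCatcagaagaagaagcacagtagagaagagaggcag
Both strands were searched for GAGGAA (a core bound by PU.1 and other ETS factors), TGANTCA (AP-1), GGGA with any base and then TTTCC (NF-kappaB), TGCTGAC (a MAF half-site), GAAA with any 2 bases and then GAAA (IRF) and TATAAA (the box of that name). A match on the opposite strand appears as its reverse complement. The Csf1 window held the NF-kappaB letters on the opposite strand from -154 to -145 relative to the start site. Of 32851 promoter windows of the same length, 0.411% held them. The C1qb window held the PU.1 letters from -30 to -25 and the C1qc window held them on the opposite strand from -193 to -188, as did 28.3% of all windows. The Cybb window held the IRF letters at 3 places, the nearest from -29 to -20, against 3.44% of all windows with at least 1 match, and it also held the PU.1 letters and the AP-1 letters, the last present in 7.81% of windows. The Cybb window lies inside the span given for the gene below. Its positions thus count from a start site other than the outer end of that span. TGCTGAC and TATAAA, which 4.67% and 13.6% of all windows held, were in none of the 4 windows. These matches describe letters and were not tested against the expression data.

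All 10 members were tested, and 9 were higher in stone kidneys and 0 lower by limma on log2(FPKM + 1), with a Benjamini-Hochberg adjusted p below 0.05 over 12319 genes. Among all tested genes 57.4% were called, 43.5% higher and 13.9% lower. Every stone sample lay above every control sample for 9 of the 10 members and for 49.8% of all tested genes, and the groups did not overlap in either direction for 66.3%. A call of higher is thus by itself common in these data. After median-of-ratios scaling 8 members were higher, beside 22.5% of all tested genes. The sizes differed widely. Csf1 was 13.4-fold higher by the ratio of mean FPKM and C1qa 5.04-fold, while Csf1r was at 1.01-fold and did not pass. The median change of the members was 1.49 on the log2 scale, against 0.21 for all tested genes. Adgre1 and Ms4a7 had control means under 1 FPKM and reached the filter through the stone samples, and both calls were the same with no filter. RNA of whole kidney does not separate a change in the number of cells from a change in RNA per cell.

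**Figure D1:**
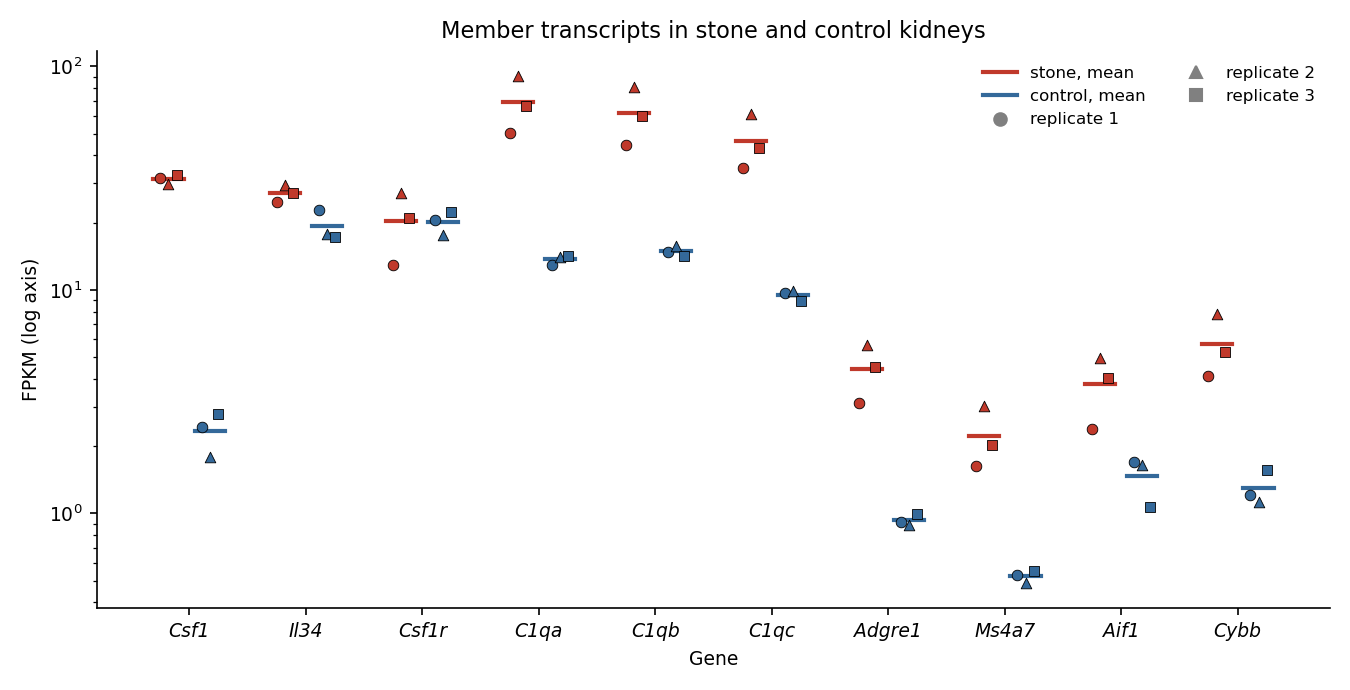
FPKM of the 10 members on a log axis, with each of the 3 stone samples and the 3 control samples as a point and the group mean as a line. Stone and control points are apart for every member but Csf1r, whose stone samples span 12.9 to 27.1 FPKM across the control samples at 17.6 to 22.4 FPKM.

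The scale of the samples set the sign of small changes. FPKM sums were 609705 to 613885 in stone samples and 711768 to 758514 in control samples, and Kap, the androgen-regulated protein gene of the proximal tubule, held 1.18% to 2.26% of the sum in stone samples and 19.3% to 23.2% in control samples. Median-of-ratios scaling moved the median log2 change of all genes by -0.22, quantile normalization by -0.24 and equal sums by 0.24. As deposited 5356 genes were higher and 1711 lower, against 2776 and 3222 after median-of-ratios scaling. Proximal tubule markers differed in level. Slc34a1, the phosphate transporter gene, chosen after its values were seen, was at 1508 to 1947 FPKM in stone samples and 2381 to 2815 FPKM in control samples. Slc7a13 of the same list was at 20.0, 45.9 and 27.2 FPKM in stone samples and 653 to 744 FPKM in control samples.

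Csf1, the gene of colony-stimulating factor 1 on chromosome 3 (107741048 to 107760469, minus strand, GRCm38.p6), had the largest change of the members. Csf1 measured 31.8, 29.8 and 32.6 FPKM in stone samples 1 to 3, against 2.43, 1.79 and 2.79 FPKM in control samples 1 to 3. The stone values lay close together and far above all control values. The difference was 3.29 on the log2 scale with an SE of 0.117 and a 95% interval from 3.02 to 3.57 (limma, adjusted p = 9.42e-06), which placed Csf1 16th of 12319 genes by p and at percentile 99.8 by size. Over the 16 alternative settings the Csf1 change stayed between 3.02 and 3.71.

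Il34, the gene of interleukin 34 on chromosome 8 (110741829 to 110805949, minus strand), was already abundant in control kidneys and rose little. Il34 measured 24.7, 29.6 and 27.2 FPKM in stone samples, against 22.9, 17.9 and 17.2 FPKM in control samples. The groups did not overlap, though stone sample 1 and control sample 1 were within 2 FPKM of each other. The Il34 difference was 0.48 (SE 0.119, limma, adjusted p = 0.0117) and stood at percentile 74.9 of all genes. After median-of-ratios scaling it was 0.23 (limma, adjusted p = 0.135) and after quantile normalization 0.29 (limma, adjusted p = 0.0718), so the Il34 call depended on the scaling. Transcripts annotated antisense to Il34 overlap it, and no source used here says whether fragments were assigned by strand.

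The balance of the ligand transcripts therefore differed between the groups. The ratio of Csf1 to Il34 FPKM was 1.29, 1.01 and 1.197 in stone samples, against 0.106, 0.1002 and 0.162 in control samples. In each stone sample the Csf1 transcript was at least as abundant per length as Il34, and in each control sample it was far below it. The mean ratios were 1.17 ± 0.144 in stone and 0.123 ± 0.0342 in control kidneys (SD, n = 3 each, two-sided exact permutation test p = 0.1, the smallest that 3 against 3 samples allow). Summed, the ligand transcripts reached 56.5, 59.4 and 59.8 FPKM in stone samples and 25.3, 19.7 and 20.0 FPKM in control samples.

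Csf1r, the receptor gene on chromosome 18 (61105572 to 61131139, plus strand), did not follow its ligands. Csf1r measured 12.9, 27.1 and 20.9 FPKM in stone samples, against 20.5, 17.6 and 22.4 FPKM in control samples. Stone sample 1 was below every control sample and stone sample 2 above every control sample, so the groups overlapped. The Csf1r means were 20.3 ± 7.15 in stone and 20.2 ± 2.46 FPKM in control kidneys (SD, n = 3 each). The difference was -0.04 on the log2 scale with a 95% interval from -0.61 to 0.52 (limma, adjusted p = 0.888), so a rise of the size seen for the C1q genes lies outside the interval while a smaller change in either direction does not. Without stone sample 1 the Csf1r change was 0.24 (limma, adjusted p = 0.196) and without stone sample 2 it was -0.27 (limma, adjusted p = 0.295). Hmgxb3 overlaps Csf1r on the other strand and was at 8.57, 8.25 and 8.40 FPKM in stone samples and 9.78, 9.75 and 9.02 FPKM in control samples, and its part in the Csf1r values was not tested.

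**Figure D2:**
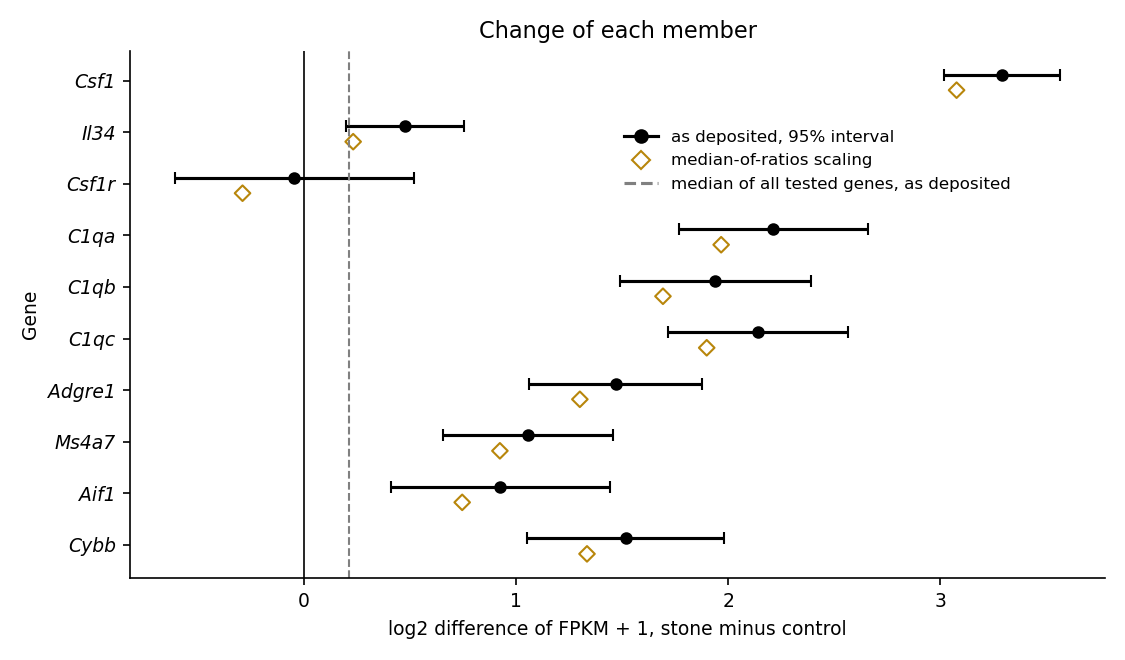
Change of each member on the log2(FPKM + 1) scale, stone minus control, with the 95% interval from limma (filled points) and the value after median-of-ratios scaling (open diamonds). Csf1 stands at 3.29, the C1q genes between 1.94 and 2.21, and the interval of Csf1r spans 0.

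The genes of the C1q chains, which lie together on chromosome 4 and whose A, B and C chains assemble into the C1q molecule, rose side by side. C1qa (136895916 to 136898844, minus strand) measured 50.3, 90.6 and 66.5 FPKM in stone samples, against 12.9, 14.0 and 14.2 FPKM in control samples. C1qb (136880126 to 136886200) measured 44.5, 80.7 and 60.0 FPKM in stone samples, against 14.8, 15.8 and 14.2 FPKM in control samples. C1qc (136889801 to 136892936) measured 35.1, 61.1 and 43.3 FPKM in stone samples, against 9.70, 9.87 and 8.94 FPKM in control samples. For all 3 genes the control values were tight, stone sample 2 was the highest and stone sample 1 the lowest, and no stone value approached a control value. The log2 changes were 2.21 for C1qa, 1.94 for C1qb and 2.14 for C1qc, with SEs of 0.189, 0.191 and 0.181 (limma, adjusted p = 0.000147, 0.000261 and 0.00014).

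The chain transcripts kept nearly the same proportions within a group, with a small difference between groups. The ratio of C1qa to C1qb was 1.13, 1.12 and 1.11 in stone samples, against 0.874, 0.889 and 1.00 in control samples. The ratio of C1qc to C1qb was 0.788, 0.758 and 0.721 in stone samples, against 0.656, 0.627 and 0.630 in control samples. Both ratios were higher in all 3 stone samples, by 0.28 and 0.24 on the log2 scale, and neither can go below p = 0.1 in an exact permutation test over these samples (p = 0.1 for each, and 0.1 when adjusted over the 3 ratios between members that were compared).

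Adgre1, the gene of the adhesion G protein-coupled receptor F4/80 on chromosome 17 (57358581 to 57483529, plus strand), was among the rarer transcripts. It measured 3.13, 5.67 and 4.53 FPKM in stone samples, against 0.91, 0.89 and 0.99 FPKM in control samples. Every stone value was more than 3 FPKM and every control value was under 1 FPKM. Adgre1 was 4.78-fold higher by the ratio of means, or 1.47 on the log2(FPKM + 1) scale with an SE of 0.174 (limma, adjusted p = 0.000546). This scale understates the change of such low genes, and with a pseudocount of 0.1 the Adgre1 change was 2.10.

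Ms4a7, which encodes a membrane protein with 4 predicted membrane spans found on tissue macrophages, lies on chromosome 19 (11321039 to 11336146, minus strand) and had the lowest level of the 10 genes in both groups. Ms4a7 measured 1.62, 3.01 and 2.03 FPKM in stone samples, against 0.53, 0.49 and 0.55 FPKM in control samples. The groups did not overlap, and Ms4a7 rose by 1.06 (SE 0.170, limma, adjusted p = 0.00193), or 1.85 with a pseudocount of 0.1. In its gene family 5 other genes were tested and 3 rose, Ms4a6d by 1.96, Ms4a6c by 1.81 and Ms4a6b by 1.38 in log2 units (limma, adjusted p = 0.000688, 0.00175 and 0.00292). These Ms4a6 genes are close paralogs, so the split of fragments among them is uncertain. Ms4a4a, a relative found on alternatively activated macrophages and chosen after its values were seen, was too low to be tested and was at 0.28, 1.88 and 1.09 FPKM in stone samples, against 0, 0 and 0.1 FPKM in control samples.

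Aif1, which encodes the actin-binding protein IBA1 used to stain macrophages and microglia, lies on chromosome 17 (35170986 to 35176083, minus strand). Aif1 measured 2.38, 4.95 and 4.03 FPKM in stone samples, against 1.70, 1.64 and 1.07 FPKM in control samples. Stone sample 1 lay only just above the highest control sample. Aif1 rose by 0.93 (SE 0.219, limma, adjusted p = 0.00981), the smallest among the macrophage genes that passed, and after quantile normalization the call was lost at 0.55 (limma, adjusted p = 0.0631). Its paralog gene Aif1l and Adgre5, the CD97 gene related to Adgre1, rose by 0.34 and 0.37 (limma, adjusted p = 0.0436 and 0.0402), and both calls were lost after median-of-ratios scaling, at 0.09 and 0.13.

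Cybb, which encodes gp91phox, the catalytic subunit of the phagocyte NADPH oxidase that makes superoxide, lies on chromosome X (9435252 to 9487766, minus strand). Cybb measured 4.12, 7.77 and 5.25 FPKM in stone samples, against 1.21, 1.12 and 1.56 FPKM in control samples. All stone values exceeded all control values, and Cybb rose by 1.52 (SE 0.197, limma, adjusted p = 0.000786). Of 9 other tested genes of the oxidase and its relatives, 5 rose and 0 fell, beside 43.5% and 13.9% of all tested genes. Their median log2 change was 0.79. Ncf1, a cytosolic subunit gene, rose by 1.204, while Nox4, the oxidase gene of tubule cells, rose by 0.79 (limma, adjusted p = 0.000772 and 0.00486). Cyba, the gene of p22phox, the membrane partner of gp91phox and of NOX4, was chosen after its values were seen. It stood at 504, 473 and 438 FPKM in stone samples and 560, 572 and 492 FPKM in control samples, and did not pass (limma, adjusted p = 0.088). After median-of-ratios scaling Cyba fell by 0.45 (limma, adjusted p = 0.0148).

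The macrophage members varied together among the stone samples, and Csf1 did not. Stone sample 2 was above sample 3 and sample 3 above sample 1 for 9 of the 9 members other than Csf1, an order seen in 20.6% of all tested genes and in 22.8% of the genes called higher. This order was picked out after the values were seen. Stone sample 2 exceeded stone sample 1 by 1.80-fold for C1qa, 1.81-fold for Adgre1, 1.89-fold for Cybb and 2.11-fold for Csf1r, by 1.199-fold for Il34, and was at 0.936 of stone sample 1 for Csf1. Of 19 other tested leukocyte and general myeloid markers, 18 had the same order. So did 8 of 16 resident macrophage markers, 8 of 13 monocyte and recruited macrophage markers, 2 of 5 dendritic cell markers and 0 of 5 neutrophil markers. Outside the leukocyte lists the order was seen in 6 of 15 fibroblast and mural markers and 1 of 13 endothelial markers. It was also seen in 3 of 15 proximal tubule markers and 2 of 15 markers of other nephron segments. The summed level of the general list was 304, 700 and 467 FPKM in stone samples 1 to 3, against 127 to 153 FPKM in control samples. The part of leukocyte content in the spread of the members was not tested.

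**Figure D3:**
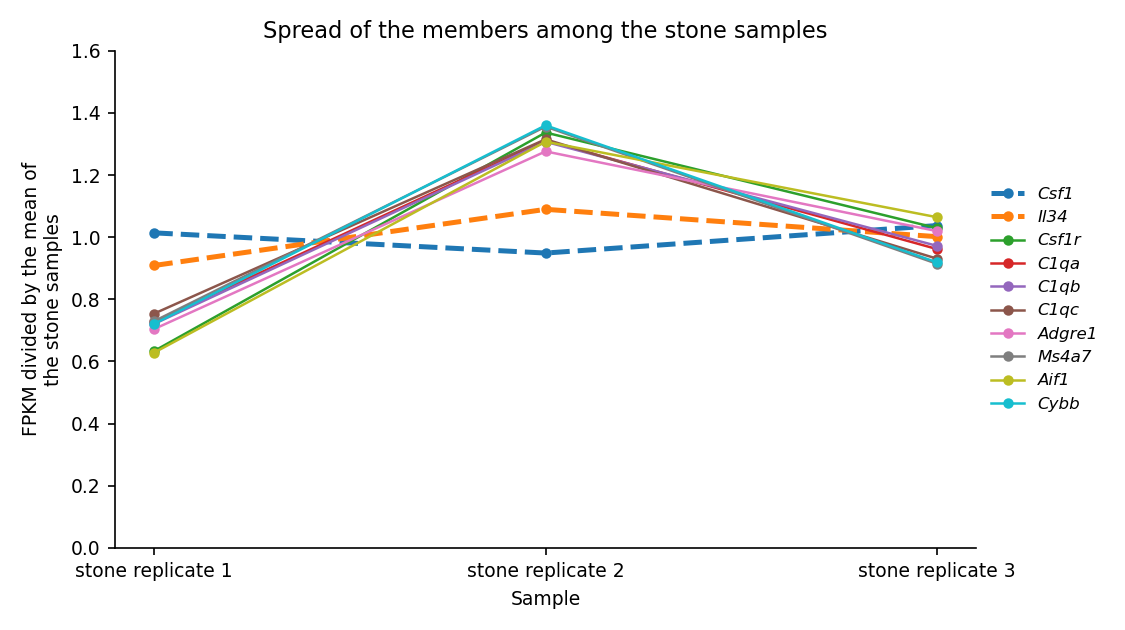
FPKM of each member in stone samples 1 to 3 divided by the mean of these 3 samples, with lines that only link the values of 1 gene. Macrophage genes and Csf1r are lowest in sample 1 and highest in sample 2, whereas the ligand genes (dashed) vary less, Csf1 without that order.

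Csf1r also kept step with the other macrophage genes within the stone group while standing apart from them between the groups, which was looked at by dividing each member by Csf1r in the same sample. The ratio of C1qa to Csf1r was 3.91, 3.34 and 3.18 in stone samples, against 0.629, 0.798 and 0.634 in control samples. The ratio of Adgre1 to Csf1r was 0.243, 0.209 and 0.217 in stone samples, against 0.0443, 0.0507 and 0.0442 in control samples. Both ratios were steady within each group and did not overlap between them. On the scale of log2(FPKM + 1), the ratio to Csf1r differed by 2.26 with an SE of 0.132 for C1qa, by 1.51 with an SE of 0.126 for Adgre1, by 1.56 for Cybb, by 1.10 for Ms4a7, or 1.90 with a pseudocount of 0.1, and by 0.97 for Aif1. For 8 of 9 members every stone ratio was above every control ratio, against 20.3% of all other tested genes set against Csf1r. The exception was Il34, whose ratio was 1.92, 1.09 and 1.30 in stone samples and 1.11, 1.02 and 0.767 in control samples. Each of the 8 had the smallest two-sided exact permutation p that 3 against 3 samples can give, 0.1, and 0.112 adjusted over the 9 ratios, so none passed a threshold of 0.05. The 9 ratios share the Csf1r values and are not independent.

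**Figure D4:**
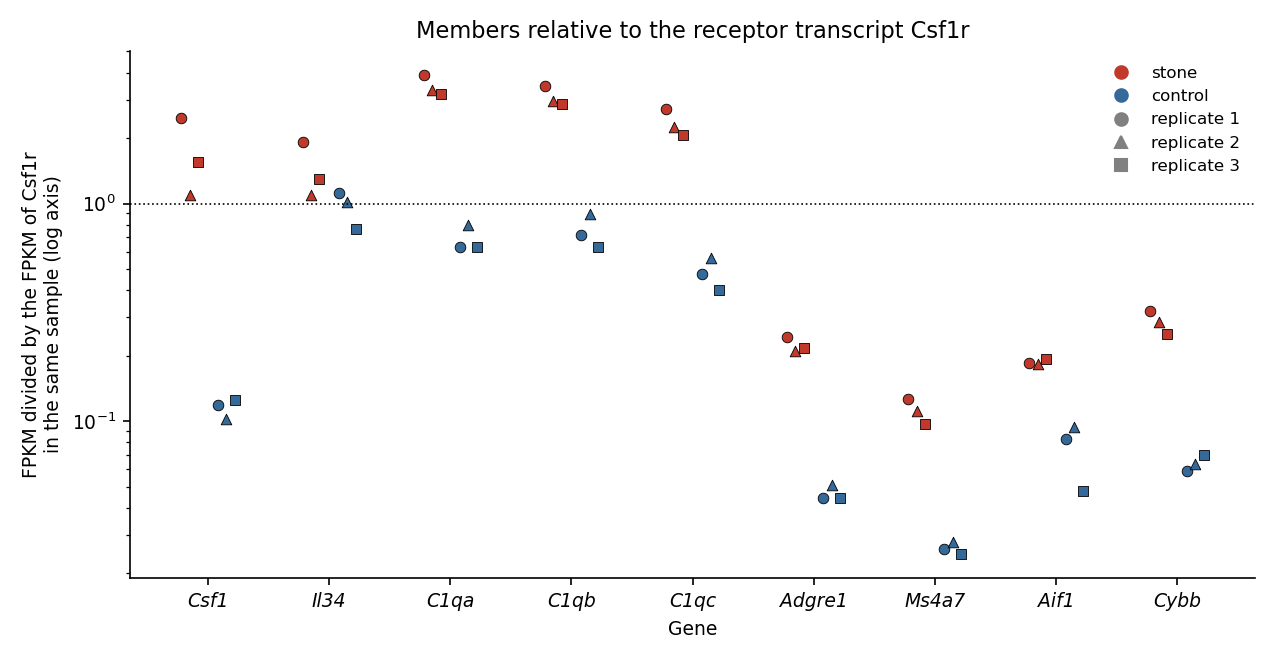
FPKM of each of the other 9 members divided by the FPKM of Csf1r in the same sample, on a log axis, with stone samples left of control samples. C1qa lies between 3.18 and 3.91 in stone samples and between 0.629 and 0.798 in control samples, and only Il34 overlaps.

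The order of the members by level also differed between the groups. In stone kidneys the means ran from C1qa at 69.1 ± 20.3 FPKM, C1qb at 61.7 ± 18.2 and C1qc at 46.5 ± 13.3 through Csf1 at 31.4 ± 1.44, Il34 at 27.2 ± 2.46 and Csf1r at 20.3 ± 7.15 to Cybb at 5.71 ± 1.87, Adgre1 at 4.44 ± 1.27, Aif1 at 3.79 ± 1.30 and Ms4a7 at 2.22 ± 0.714 (SD, n = 3 each). In control kidneys they ran from Csf1r at 20.2 ± 2.46 FPKM and Il34 at 19.3 ± 3.10 through C1qb at 14.9 ± 0.783, C1qa at 13.7 ± 0.696 and C1qc at 9.50 ± 0.495 to Csf1 at 2.34 ± 0.507, Aif1 at 1.47 ± 0.348, Cybb at 1.30 ± 0.233, Adgre1 at 0.93 ± 0.0529 and Ms4a7 at 0.523 ± 0.0306. Csf1r was thus first in control kidneys and 6th in stone kidneys. Judged by the ranges of their samples, neighbours in the stone order overlapped except C1qc with Csf1 and Csf1 with Il34, whose gap was under 1 FPKM, and Csf1r with Cybb. In the control order Csf1r overlapped Il34, C1qb overlapped C1qa and Aif1 overlapped Cybb, and the other neighbours did not overlap.

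Other genes of CSF1R signalling mostly rose. Of 21 tested genes of that list beside the members, 17 rose and 0 fell, with a median log2 change of 0.51, and 11 were higher after median-of-ratios scaling. The counts of this and every other list stand beside 43.5% higher and 13.9% lower among all tested genes. After median-of-ratios scaling these shares were 22.5% and 26.2%. Pik3r1, the regulatory subunit gene of the PI 3-kinase that CSF1R activates, rose by 0.94, Sdc1, the gene of syndecan-1, which also binds interleukin 34, by 1.62, and Tyrobp, the gene of the adaptor DAP12, by 1.72 (limma, adjusted p = 0.000399, 0.000535 and 0.000542). Syndecan-1 is also made by epithelium. Tyrobp measured 28.4, 54.1 and 38.5 FPKM in stone samples, against 10.6, 11.8 and 11.1 FPKM in control samples, with the stone samples in the order of the macrophage members.

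Transcription factors of the macrophage lineage were mixed. Of 15 tested, 8 rose and 2 fell, beside 43.5% and 13.9% of all tested genes, with a median log2 change of 0.35. After median-of-ratios scaling 6 were higher and 3 lower, beside 22.5% and 26.2% of all tested genes. Tfec, a factor of the MITF family, rose by 0.71 and Id3, an inhibitor of helix-loop-helix factors, by 0.94, and Irf5, an interferon regulatory factor gene, fell by 0.93 (limma, adjusted p = 0.000192, 0.000547 and 0.00112). Spi1, the gene of PU.1, on which Csf1r transcription depends, was chosen after its values were seen. It measured 3.79, 9.24 and 6.01 FPKM in stone samples, against 2.81, 1.92 and 1.85 FPKM in control samples (limma, log2 change 1.15, adjusted p = 0.00908).

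Among other colony-stimulating and stem cell factors and their receptors, 5 of 7 tested genes rose and 0 fell. The receptor genes Csf3r and Csf2ra, for granulocyte and for granulocyte-macrophage colony-stimulating factor, rose by 0.92 and 0.95, and Kitl, the stem cell factor gene, by 0.79 (limma, adjusted p = 0.000724, 0.00304 and 0.000976). The ligand genes Csf2 and Csf3, chosen after their values were seen, did not reach the level for testing. Csf2 was listed at 0.18, 0 and 0.34 FPKM and Csf3 at 0.19, 0.04 and 0.3 FPKM in stone samples, and both were listed at 0 in all control samples.

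Partners of C1q rose with it. Of 14 tested genes of the C1 complex, its inhibitor, later components, C1q receptors and related proteins, 12 rose and 0 fell, with a median log2 change of 1.15, and after median-of-ratios scaling 12 were higher and 1 lower. C3 and C4b, the genes of the components that the classical pathway cleaves, rose by 4.94 and 1.86, and C1qtnf6, a relative of C1q, by 1.46 (limma, adjusted p = 9.81e-05, 2.37e-05 and 0.000239). The protease genes C1ra and C1s1, chosen after their values were seen, rose by 1.30 and 1.26 (limma, adjusted p = 0.00052 and 0.00195). Stone sample 1 was the lowest stone sample for both of these, and samples 2 and 3 were close to each other, at 12.94 and 13.02 FPKM for C1ra.

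Genes used elsewhere to mark resident macrophages did not move as a block. Of 16 tested beside the members, 11 rose and 4 fell, with a median log2 change of 1.09. Axl, a receptor gene for apoptotic cell uptake, rose by 1.93 and Tmem119, a microglial marker that mesenchymal cells also express, by 1.71, while Selenop, a selenium transport protein gene also expressed by the proximal tubule, fell by 1.55 (limma, adjusted p = 0.000185, 0.00022 and 2.04e-05). Cx3cr1, the fractalkine receptor gene of kidney macrophages, and Mertk, an apoptotic cell receptor gene, were chosen after their values were seen. Cx3cr1 measured 4.46, 6.70 and 4.51 FPKM in stone samples, against 0.81, 0.90 and 1.26 FPKM in control samples. Mertk measured 11.4, 11.8 and 11.8 FPKM in stone samples, against 15.7, 14.95 and 15.8 FPKM in control samples, and fell by 0.38 (limma, adjusted p = 0.00175). Another 10 markers of this list were too low to test, and they are named with their values seen. Timd4, Vsig4 and Cd5l, which mark other resident macrophage populations, were at 0.17 FPKM or less in every sample, and Marco was listed at 0 in all. Siglec1 was at 0.31, 0.90 and 0.67 FPKM in stone samples, against 0.13, 0.08 and 0.08 FPKM in control samples. Siglec1, Cd163, Lyve1, Hpgds and P2ry12 were higher in every stone sample than in any control sample, and the other untested markers overlapped.

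Markers of monocytes and recruited macrophages rose in 9 of 13 tested genes and fell in 2. Chil3, a chitinase-like protein gene, rose by 2.15 and Ccr2, the chemokine receptor gene of inflammatory monocytes, by 1.70, while Ace, which is also a brush border enzyme gene, fell by 2.04 (limma, adjusted p = 3.65e-05, 0.000203 and 0.000104). The other gene that fell was Ly6c2, a Ly6C gene of inflammatory monocytes, named after its values were seen. Ly6c2 measured 0.38, 0.87 and 0.48 FPKM in stone samples, against 1.67, 1.34 and 1.86 FPKM in control samples (limma, log2 change -0.74, adjusted p = 0.00647). Its paralog Ly6c1 is nearly identical, so the split of fragments between them is uncertain. Ly6c1, of the same list and also named after its values were seen, went the other way. It measured 150, 174 and 180 FPKM in stone samples, against 75.7, 76.6 and 91.7 FPKM in control samples (limma, log2 change 1.04, adjusted p = 0.000251). The Ly6c1 stone samples were not in the order of the macrophage members, and which cells carried Ly6c1 was not tested. Of 19 tested general myeloid and leukocyte markers, 17 rose, and the smallest p values were those of the Fc receptor gene Fcgr3, at 2.55, and the protease gene Ctss, at 2.68 (limma, adjusted p = 8.72e-05 and 0.000239). The Ctss level was 34.8, 74.0 and 50.5 FPKM in stone samples, against 7.18, 5.78 and 8.52 FPKM in control samples.

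**Figure D5:**
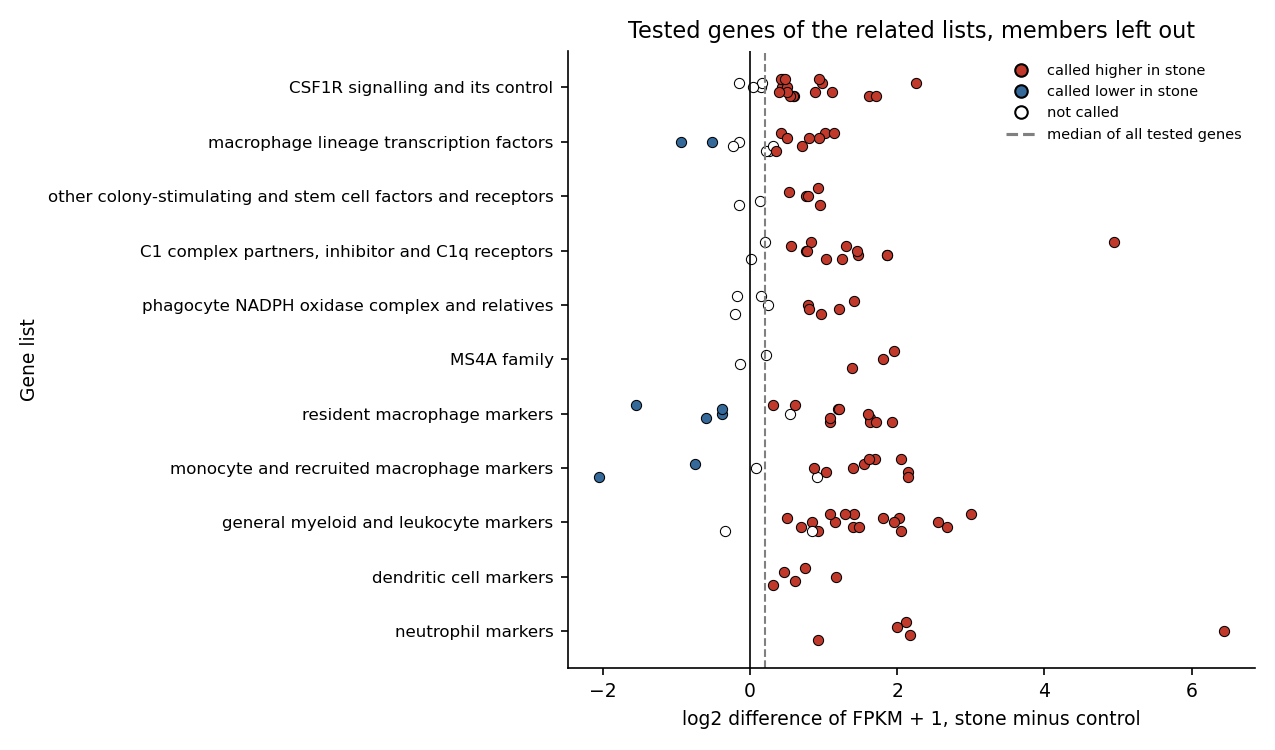
Change of each tested gene of 11 related lists, members left out, on the log2(FPKM + 1) scale, stone minus control, with calls in colour and a dashed line at the median of all tested genes. General myeloid markers lie almost all to the right of the line, whereas resident macrophage markers and lineage transcription factors lie on both sides.

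Markers of other cells that could carry these transcripts were measured alongside. Summed T and NK cell markers were at 2.67 to 3.48 FPKM in stone samples and 4.41 to 5.85 FPKM in control samples, with 0 of 14 genes high enough to test, and summed B and plasma cell markers were at 3.01 to 4.64 FPKM in stone samples and 3.92 to 6.88 FPKM in control samples, with Mzb1 as the tested gene, which did not pass (limma, adjusted p = 0.412). Of 5 tested neutrophil markers 5 rose, among them S100a9 by 2.17 and Lcn2, which injured tubules also make, by 6.43 (limma, adjusted p = 0.000108 and 3.36e-05). Another 10 neutrophil markers were too low to test, and those named here were picked after their values were seen. Ly6g was at most 0.1 FPKM and Mpo at most 0.03 FPKM in any sample. Retnlg, at 1.01 to 1.82 FPKM in stone samples and 0 to 0.43 FPKM in control samples, was higher in every stone sample than in any control sample. So were Cxcr2, Mmp8 and Mmp9, and the other untested neutrophil markers overlapped. Of 5 tested dendritic cell markers 5 rose, Cd24a, which tubule epithelium also expresses, by 1.17 and Itgax by 0.62 (limma, adjusted p = 0.00155 and 0.0127), while 10 were too low to test, and after median-of-ratios scaling 2 of the 5 were higher. Among those 10, Xcr1, Clec9a and Itgae, markers of conventional type 1 dendritic cells picked after their values were seen, were lower in every stone sample than in any control sample. Xcr1 was at 0.02 to 0.07 FPKM in stone samples and 0.16 to 0.25 FPKM in control samples, and Clec9a at 0.43 to 0.54 FPKM in stone samples and 0.59 to 0.69 FPKM in control samples. Itgae was at 0.13 to 0.23 FPKM in stone samples and 0.26 to 0.37 FPKM in control samples. Flt3, Irf4 and Clec10a were higher in every stone sample than in any control sample, and the other 4 overlapped. Of all tested genes 49.8% were higher and 16.5% lower in every stone sample than in any control sample. The share among genes too low to test was not counted, so no shift is read from these low values. Fibroblast and mural markers rose in 13 of 15 genes, with sums of 238, 381 and 380 FPKM in stone samples 1 to 3 and 91.3 to 108 FPKM in control samples. Endothelial markers rose in 8 of 13, beside 43.5% of all tested genes. Of 15 proximal tubule markers 10 fell and 1 rose, and of 15 markers of other nephron segments 5 fell and 4 rose. The parts of these cell types in the member values were not tested.

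The genes whose 6 values lay closest to those of a member, each centred on its own mean on the log2(FPKM + 1) scale, differed from member to member. For Csf1 they were Clca3a1, a chloride channel accessory gene, D17H6S56E-5 and Gpc3, a glypican gene, at root mean square differences of 0.128, 0.144 and 0.162 over 6 samples, and 4 of 12309 genes lay within 0.2. For Il34 they were Ralgds, Comtd1 and Pkn3, at 0.0214, 0.0485 and 0.0532, and 3190 genes lay within 0.2. For Csf1r they were Slc5a3, the myo-inositol transporter gene, Tarm1 and Foxc1, a transcription factor gene of stromal cells, at 0.110, 0.111 and 0.119, with 55 genes within 0.2. For C1qa they were the apolipoprotein gene Apoc2, the hyaluronan receptor gene Cd44 and the type III collagen gene Col3a1, at 0.0853, 0.115 and 0.115, with 17 genes within 0.2. Apoc2 was at 0, 0.16 and 0.24 FPKM and Cd44 at 0.36, 0.25 and 0.55 FPKM in control samples. By the ratio of means they were 34.0-fold and 15.9-fold higher, against 5.04-fold for C1qa. Clca3a1 was 19.6-fold higher, against 13.4-fold for Csf1. The likeness of such low genes thus holds on the log2(FPKM + 1) scale only. Tarm1 measured 2.11, 4.12 and 3.12 FPKM in stone samples and 3.40, 2.32 and 3.56 FPKM in control samples, overlapping as Csf1r did. Col3a1 measured 18.5, 38.6 and 29.0 FPKM in stone samples and 4.35, 4.41 and 5.60 FPKM in control samples, with the same order of stone samples as the C1q genes.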

How the data were processed

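RNA was measured in whole kidney of 6 mouse samples. Per the labels' protocols, TRIzol was used for extraction and dUTP for the second strand. The submitters' processing notes name HISAT2 2.0.4 and GRCm38.p6. No source used here gives the quantifier, the annotation or any use of strand. FPKM values were made and deposited by the authors, 1 column per sample, with 0 columns of other samples. Absolute depth is unknown, so no counting intervals are given.

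Of the genes, 12319 averaged at least 1 FPKM and were tested, and 5614 were left out. The test was limma 3.58.1 in R 4.3.3 on log2(FPKM + 1), with a trend, two-sided, at an adjusted p of 0.05. Single ratios were compared by exact permutation (scipy 1.17.1). Coordinates are from RefSeq, which matched 17872 of 17933 symbols, and strands and overlaps from GENCODE M21. On simulated data with 200 of the 12319 genes changed, stone against control recovered 38% of changes of 0.5, 84% of 1, 94% of 2 and 80% of -1 on the log2 scale. Of its 153 calls 5 were false. In the measured data 57.4% of the genes were called, so these figures may not carry over. The members, the 18 gene lists and the rules for naming genes were chosen with earlier results of these data known. The named genes of a list are those called with the smallest p, up to 3 for pathways, families and resident or recruited macrophage markers and up to 2 otherwise, plus the leading call against the majority or, with none called, the smallest p, and the 3 genes nearest to Csf1, Il34, Csf1r and C1qa in pattern. The 2 lists of nephron markers and the endothelial and fibroblast lists are summarised by counts, without the genes this rule names there except Slc7a13. Of the other genes it names, 1 is not reported here.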

Additional observations from a re-analysis of the deposited data

How the results depend on the processing

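The number of members called higher was 9 in 14 of 16 alternative settings, 8 after median-of-ratios scaling, where Il34 was lost, and 7 after quantile normalization, where Il34 and Aif1 were lost (limma). No member was called lower in any setting, and Csf1r passed in none, with changes from -0.29 to 0.24 and adjusted p from 0.196 to 0.94. Leaving out each sample in turn kept all 9 calls. Counts over all genes moved more: 2776 higher and 3222 lower after median-of-ratios scaling, 2762 and 3108 after quantile normalization and 8440 and 797 with equal sums, against 5356 and 1711. The 8 ratios to Csf1r that did not overlap were 8 with pseudocounts of 0.1 and 0.5 and after median-of-ratios scaling, and 8 or 9 with 1 sample left out. Among the 55 other named genes, 48 kept their call in every setting. Adgre5 and Aif1l, each lost in 9 settings, Pkn3 in 6, Comtd1 in 3, Ralgds in 2 and Itgax in 1 did not, and Mzb1 was called lower after quantile normalization. The cause of these losses was not tested. Whether the replicate numbers pair the samples is not in the labels. Deviations from the group means correlated at 0.0075, -0.22 and -0.0397 across genes for numbers 1 to 3. For samples of unlike number they correlated at -0.0741 to 0.161. The values gave no sign of pairing, and 3 samples per group cannot exclude it. With the number as a replicate block, 9 members were higher, 4861 genes in all, and the same-numbered differences of all 9 ratios to Csf1r were above 0.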
